A study of Mus musculus with 24 samples.

Results

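The genes described here are the nuclear genes of the mitochondrial oxidative phosphorylation subunits. They were taken as every gene whose symbol began with Ndufa and a digit, Ndufb, Ndufc, Ndufs, Ndufv, Uqcr, Cox4 to Cox8 or Atp5, together with Sdha, Sdhb, Sdhc and Sdhd, leaving out symbols with -ps or -rs. This gave 89 of the 57126 gene IDs counted, namely 38 of complex I, 4 of complex II, 8 of complex III, 21 of complex IV and 18 of complex V, the ATP synthase. Ndufa4 and Ndufa4l2 were counted with complex IV, where the NDUFA4 protein sits. The ATP synthase genes carried their older symbols (Atp5a1, Atp5b, Atp5e), and 2 further genes of that complex, Atpif1 and Usmg5, fell outside the symbol rule with 1 and 15 counts over all libraries.

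Oxidative phosphorylation takes electrons from NADH at complex I and from succinate at complex II, passes them through complex III and cytochrome c to oxygen at complex IV, and uses the proton gradient that complexes I, III and IV build to drive ATP synthesis at complex V. Each complex but complex II mixes subunits encoded in the mitochondrial genome with a larger number of nuclear-encoded subunits, and a few subunits of complex IV have paired isoforms that differ by tissue (Cox4i1 and Cox4i2, Cox6a1 and Cox6a2, Cox6b1 and Cox6b2, Cox7a1 and Cox7a2, Cox8a and Cox8b). Neurons draw most of their ATP from this pathway, and Purkinje cells, which are lost from the cerebellum in Niemann-Pick disease type C1, are among the large, tonically firing ones.

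RNA was counted in the hippocampus and cerebellum of 12 mice (strain BALB/cNctr-Npc1m1N/J), 4 in each of 3 groups, which gave 24 libraries. The 4 Npc1-/- DIP mice (2 male and 2 female, postnatal day 63) received dipyridamole, an inhibitor of nucleoside transport and phosphodiesterases, at 30 mg/kg intraperitoneally on 5 days per week from postnatal day 28, in PBS with PEG400. The 4 Npc1-/- Veh mice (3 male and 1 female, postnatal day 63) and the 4 Npc1+/+ Veh mice (all female, postnatal day 65) received PBS with PEG400 alone. The Npc1-/- mice lack NPC1, the lysosomal cholesterol exporter, from birth in every cell. There was no Npc1+/+ group with dipyridamole. Sex was a covariate in the main fits within a tissue, and a tissue by sex term entered those over both tissues. Since the Npc1+/+ mice were all female, these sex effects came from the Npc1-/- mice alone. For this reason fitted folds and plain ratios of group means need not match. Age and the range of sequencing ion codes went wholly with genotype and cannot be told apart from it.

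Npc1 itself averaged 30.3 CPM (counts scaled to a common library total after TMM adjustment) in the Npc1-/- Veh cerebella against 107 CPM in the Npc1+/+ cerebella, and 19.0 CPM against 74.98 CPM in the hippocampi, and no Npc1-/- library reached the range of Npc1+/+. Libraries held 1833609 to 11590081 counts. Marker sums set the groups apart beyond the subunit genes. The summed CPM of 10 Purkinje cell markers (all 10 detected) ran from 3570 to 3925 in the dipyridamole-treated Npc1-/- cerebella and from 2634 to 4152 in the vehicle-treated ones, against 8860 to 9730 in the Npc1+/+ cerebella. For 8 microglial markers (all 8 detected) the sums were 608 to 727, 606 to 738 and 160 to 172 CPM in the same order of groups. The Purkinje cell sums also hold counts of other cells, as the same 10 markers summed to 1422 to 2570 CPM over the hippocampi. By gene, the 9 tested in the cerebellum all lay below Npc1+/+ with vehicle, at a median log2 fold change of -2.65. In the hippocampus, 10 myelin markers (all 10 detected) summed to 646 to 1710 CPM with dipyridamole and 1176 to 1815 CPM with vehicle, against 4957 to 6051 CPM in Npc1+/+ mice. In bulk tissue, fewer cells of a type and less RNA per cell cannot be told apart, and the part of these shifts in the values below was not tested.

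Of the 89 genes, 71 were measured well enough to test in the cerebellum (31 of complex I, 4 of complex II, 8 of complex III, 16 of complex IV and 12 of complex V) and 70 in the hippocampus, where Cox7a1, at 0.719 to 1.14 CPM on average, did not pass the filter on low counts. The other 18 were listed at 0 in every library (6) or at 1 to 13 counts over all 24 libraries (12). They include subunits that respiring cells use in general, such as Ndufa12 (10 counts), Ndufb8 (5), Ndufs5 (1), Cox7c (3), Atp5f1 (5), Atp5h (6) and both remaining genes of the c-ring, Atp5g1 (5) and Atp5g2 (0). A value near 0 in these libraries was therefore not read as absence of the transcript. The panel reads a short amplicon of each gene, so CPM were compared between samples and not between genes. Of the mitochondrially encoded subunits 7 of 13 had any count, and together they held 1.84 to 6.43 CPM in a library. The 89 nuclear genes made up 1.60% to 2.18% of the counts of a library.

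In the vehicle-treated Npc1-/- cerebellum most subunit genes lay slightly under the Npc1+/+ level. The complex IV isoforms Cox6a2 and Cox4i2 moved furthest up and down, both on few counts. Cox6a2 had 13 counts in the Npc1+/+ cerebella, and Cox4i2 had 63 in the Npc1-/- Veh cerebella. Over the 71 tested genes the median log2 fold change was -0.20, a level 12.7% lower, and 54 lay below 0, against a median of 0.01 over all 12921 genes tested. By the edgeR quasi-likelihood test at a Benjamini-Hochberg adjusted p of 0.05, 3 genes rose (Cox6a2, Ndufa11 and Uqcrc1) and 4 fell (Cox4i2, Atp5e, Cox8a and Cox5b). These 7 of 71 stand against 9.95% of all genes called in this comparison (5.91% higher and 4.04% lower), so the share called among the subunit genes was near the background. The CPM of 13 subunit genes were lower in all 4 Npc1-/- Veh libraries than in any Npc1+/+ library, against 9.59% of all genes, and 4 were higher in all, against 11.0%. By complex the median log2 fold change was -0.19 for complex I, -0.16 for complex II, -0.27 for complex III, -0.34 for complex IV and -0.28 for complex V. No complex II gene was called. Without vehicle replicate 3 the count of called subunit genes was 1 (Cox6a2), and without vehicle replicate 2 it was 15, against 3.63% and 14.3% of all genes called in those fits.

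**Figure D1:**
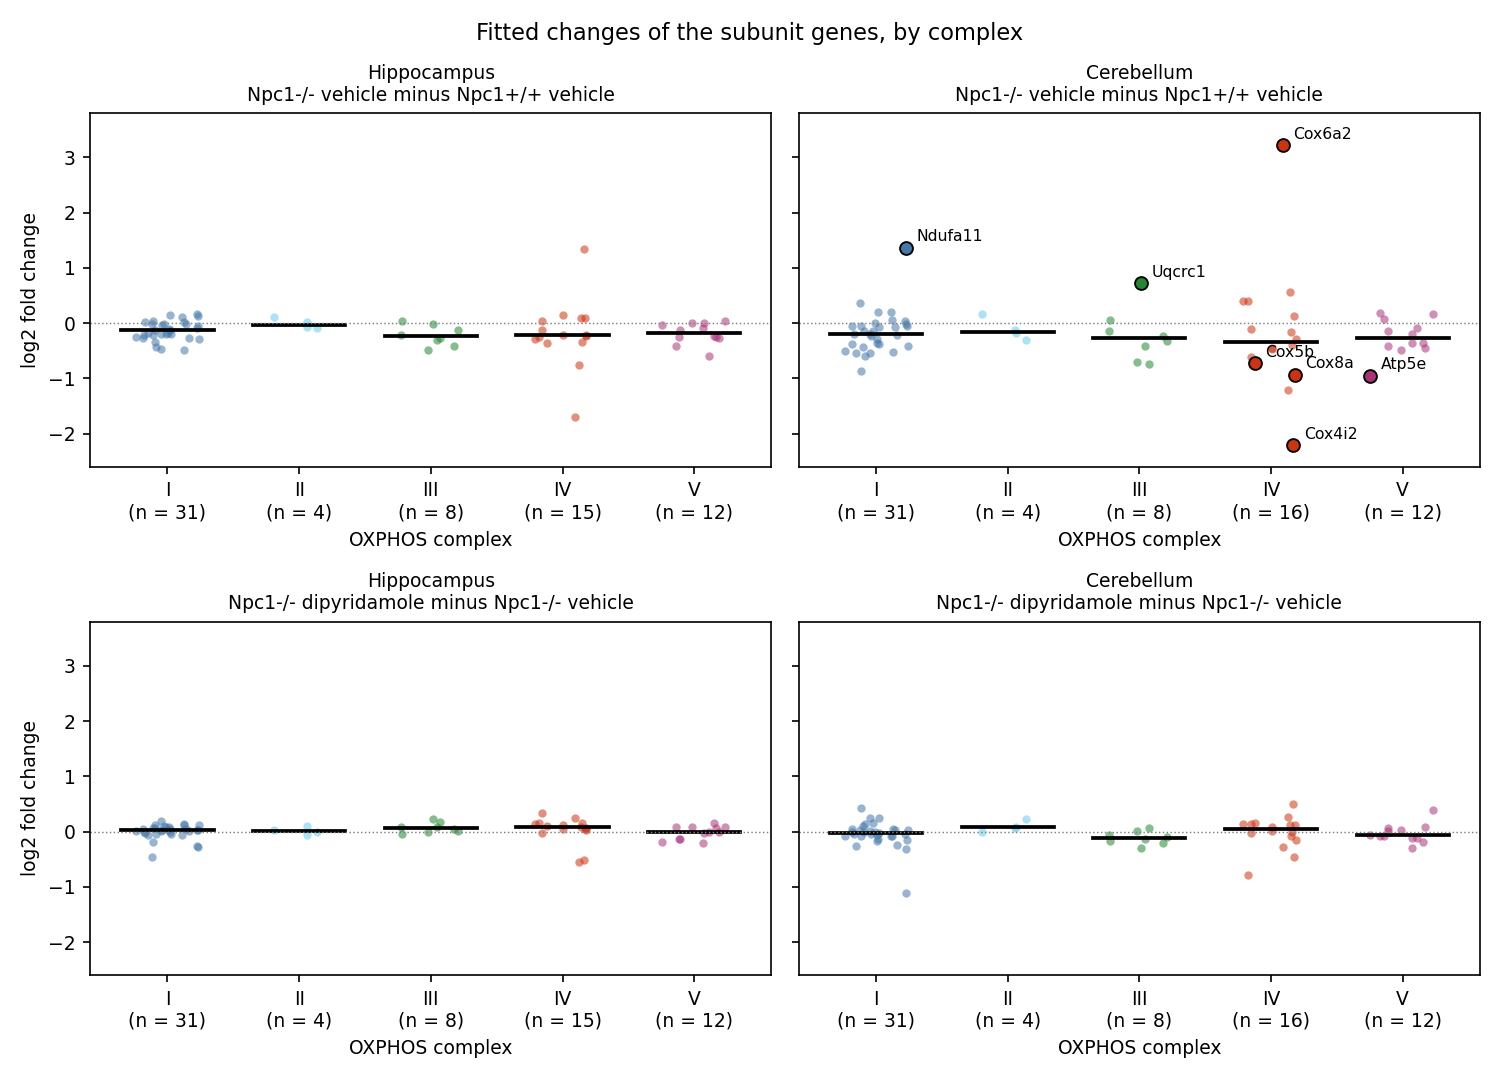
Fitted log2 fold changes (vertical axis) of the tested subunit genes in complexes I to V (horizontal axis) in the hippocampus (left) and cerebellum (right), for Npc1-/- vehicle minus Npc1+/+ vehicle (upper panels) and for dipyridamole minus vehicle in Npc1-/- mice (lower panels). Points are genes, black bars are medians, and outlined, named points have an adjusted p under 0.05, which only the cerebellar genotype panel holds; its medians run from -0.16 to -0.34.

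The gene with the largest rise was Cox6a2, the isoform of complex IV subunit 6A known from heart and skeletal muscle and, in mouse brain, from parvalbumin interneurons. Cox6a2 had 5.02, 3.27, 4.02 and 2.03 CPM in the dipyridamole-treated Npc1-/- cerebella, 5.50, 4.31, 3.03 and 6.46 CPM in the vehicle-treated Npc1-/- cerebella and 0.543, 0.416, 0.267 and 0.126 CPM in the Npc1+/+ cerebella. The 8 Npc1-/- cerebella all lay above the 4 Npc1+/+ cerebella, whose values rest on 1 to 6 counts each (13 in all). The log2 fold change was 3.22 ± 0.49 (SE, edgeR adjusted p = 0.000289) with vehicle, and 2.94 ± 0.45 (edgeR adjusted p = 0.000212) with dipyridamole against the same Npc1+/+ libraries. Cox6a2 passed the filter on low counts through the Npc1-/- libraries alone, 0 of the 4 Npc1+/+ cerebella reaching its level of 1.25 CPM. The size of the fitted value and its adjusted p are therefore uncertain. Its widely expressed partner Cox6a1 averaged 1327 ± 178 CPM with dipyridamole, 1416 ± 460.5 CPM with vehicle and 1659 ± 294 CPM in Npc1+/+ cerebella (SD, n = 4 each) and was not called.

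Cox6a2 lies on chromosome 7 at 127804607 to 127805559 on the minus strand (GRCm39), inside the span of Itgad on the plus strand, with which it shares exonic bases. Itgad had 2 counts in all 24 libraries. The neighbouring Itgax, an integrin of activated microglia at 127728719 to 127749829, averaged 31.7 CPM with dipyridamole and 22.98 CPM with vehicle in the Npc1-/- cerebella, against 0.0972 CPM in the Npc1+/+ cerebella. Counting ignored strand, and the part of neighbouring transcription in the Cox6a2 counts was not tested. The 10 striated muscle markers, of which 9 were detected and Tnnc2 was at 0, summed to 3.92 to 6.69 CPM with dipyridamole, 3.77 to 8.16 CPM with vehicle and 4.03 to 8.41 CPM in Npc1+/+ cerebella, ranges that overlap. The 7 inhibitory interneuron markers (all 7 detected) summed to 1114 to 1194, 1203 to 1300 and 1621 to 1919 CPM in the same order of groups, but the list was split. Of 6 tested with vehicle, 3 lay above 0 and 3 below, with a median of -0.09; Gad2 was called higher (0.56) and Pvalb lower (-1.19). The part of these cells in the Cox6a2 value was not tested. Of 9 tested Purkinje cell markers, 8 were called lower with vehicle, against 4.04% of all genes. The part of Purkinje cells in the Pvalb value and in the sums of this list was not tested either.

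Cox4i2, the isoform of subunit 4 known from lung, from pericytes of the brain and from responses to low oxygen, fell. Cox4i2 had 5.74, 2.12, 3.10 and 2.03 CPM in the dipyridamole-treated Npc1-/- cerebella, 2.50, 1.62, 1.58 and 4.21 CPM in the vehicle-treated Npc1-/- cerebella and 6.87, 9.57, 8.41 and 7.56 CPM in the Npc1+/+ cerebella. All 8 Npc1-/- cerebella lay below the lowest Npc1+/+ cerebellum. The log2 fold change was -2.21 ± 0.42 with vehicle (edgeR adjusted p = 0.00203) and -1.70 ± 0.35 with dipyridamole against the same Npc1+/+ libraries (edgeR adjusted p = 0.00292). Without replicate 3 of the vehicle group, the only female Npc1-/- Veh mouse, the edgeR adjusted p with vehicle was 0.0581. Cox4i1, the common isoform, averaged 619 ± 18.5, 632 ± 92.0 and 670.3 ± 52.7 CPM with dipyridamole, with vehicle and in Npc1+/+ cerebella. The 8 mural cell markers (pericytes and smooth muscle, 7 detected, Tagln at 0) summed to 304 to 341.5 CPM with dipyridamole, 272 to 400.7 CPM with vehicle and 277 to 314 CPM in Npc1+/+ cerebella, ranges that overlap. Of 7 tested with vehicle, 5 lay above 0 and 2 below, with a median of 0.21. Another isoform known from pericytes, Ndufa4l2, averaged 9.19 ± 0.61, 8.06 ± 1.77 and 6.79 ± 1.02 CPM in the same order of groups and was not called. It shares exonic bases with Shmt2 on the opposite strand. The part of pericytes in the Cox4i2 value was not tested.

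Atp5e encodes the epsilon subunit of the central stalk of the ATP synthase. Atp5e had 68.7, 82.6, 68.1 and 76.9 CPM in the dipyridamole-treated Npc1-/- cerebella, 103, 71.6, 61.2 and 88.7 CPM in the vehicle-treated Npc1-/- cerebella and 156, 132, 136 and 122 CPM in the Npc1+/+ cerebella. The Npc1-/- values were all lower than the Npc1+/+ values, with a log2 fold change of -0.95 ± 0.20 with vehicle (edgeR adjusted p = 0.00414) and -1.01 ± 0.17 with dipyridamole (edgeR adjusted p = 0.000493). Without vehicle replicate 3 the vehicle value was -0.69 with an edgeR adjusted p of 0.158. Other subunits of the same F1 head were not called. Atp5a1, the alpha subunit, averaged 1132 ± 49.9 CPM with vehicle against 980.3 ± 63.7 CPM in Npc1+/+ cerebella, and Atp5b, the beta subunit, 1254 ± 208 CPM against 1517 ± 135 CPM. Atp5c1, the gamma subunit that epsilon binds, averaged 139.7 ± 26.3 CPM against 181 ± 36.2 CPM, and the c-ring gene Atp5g3 averaged 1266 ± 211 CPM against 1169 ± 110 CPM.

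Cox8a and Cox5b are widely expressed subunits of complex IV, the smaller of which, COX8A, spans the inner membrane. Cox8a had 24.98, 17.5, 18.5 and 13.3 CPM in the dipyridamole-treated Npc1-/- cerebella, 19.5, 28.01, 12.9 and 17.6 CPM in the vehicle-treated Npc1-/- cerebella and 27.8, 26.9, 26.8 and 25.8 CPM in the Npc1+/+ cerebella. Of the vehicle-treated Npc1-/- values, replicate 2 lay above the Npc1+/+ range and the other 3 below it, and all 4 dipyridamole-treated values lay below it. The fitted log2 fold change was -0.93 ± 0.24 (edgeR adjusted p = 0.0178) with vehicle and -0.81 ± 0.20 (edgeR adjusted p = 0.0127) with dipyridamole. With no sex term Cox8a was called in neither comparison, so its calls rest on the adjustment for sex. Cox5b had 697, 578, 494 and 400.3 CPM in the dipyridamole-treated Npc1-/- cerebella, 502, 813, 334 and 580.3 CPM in the vehicle-treated Npc1-/- cerebella and 512, 577, 728 and 695 CPM in the Npc1+/+ cerebella. Here the groups overlap throughout, and the fitted log2 fold change of -0.73 ± 0.22 (edgeR adjusted p = 0.0430) with vehicle rests on the adjustment for sex; with no sex term it was -0.18 and not called. Without vehicle replicate 3 the edgeR adjusted p was 0.229 for Cox8a and 0.403 for Cox5b. The other broadly expressed complex IV genes of the fixed set, Cox5a, Cox6b1, Cox7a2 and Ndufa4, had log2 fold changes of -0.17, -0.39, -0.61 and -0.47 with vehicle, none of them called.

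Uqcrc1 encodes a core subunit of complex III. Uqcrc1 had 14.9, 16, 17.9 and 18.3 CPM in the dipyridamole-treated Npc1-/- cerebella, 19.6, 16.7, 22.5 and 19.7 CPM in the vehicle-treated Npc1-/- cerebella and 13.02, 13.5, 14.4 and 13.5 CPM in the Npc1+/+ cerebella. The Npc1-/- cerebella lay above all 4 Npc1+/+ cerebella in both treatment groups, and the log2 fold change was 0.72 ± 0.19 with vehicle (edgeR adjusted p = 0.0197) and 0.42 ± 0.17 with dipyridamole (edgeR adjusted p = 0.102, not called). Without vehicle replicate 3 the adjusted p with vehicle was 0.187. Uqcrc2, the partner core subunit, averaged 584 ± 43.0, 633 ± 109 and 639.7 ± 58.5 CPM with dipyridamole, with vehicle and in Npc1+/+ cerebella and was not called. Ndufa11, a membrane-arm subunit of complex I, had a log2 fold change of 1.37 ± 0.42 (edgeR adjusted p = 0.0454) with vehicle, on 124 counts in the 4 vehicle-treated Npc1-/- libraries and 89 in the Npc1+/+ libraries. Ndufa11 had 1.43, 2.29, 3.90 and 2.82 CPM in the dipyridamole-treated Npc1-/- cerebella, 4.25, 5.39, 4.74 and 6.62 CPM in the vehicle-treated Npc1-/- cerebella and 3.17, 2.29, 2.94 and 1.26 CPM in the Npc1+/+ cerebella. The vehicle-treated Npc1-/- values lay above every value of the other groups. Ndufa11b, a near-identical copy, had a log2 fold change of -0.87 and was not called, and Ndufa11 shares exonic bases with Vmac on the opposite strand, so its value is uncertain.

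**Figure D2:**
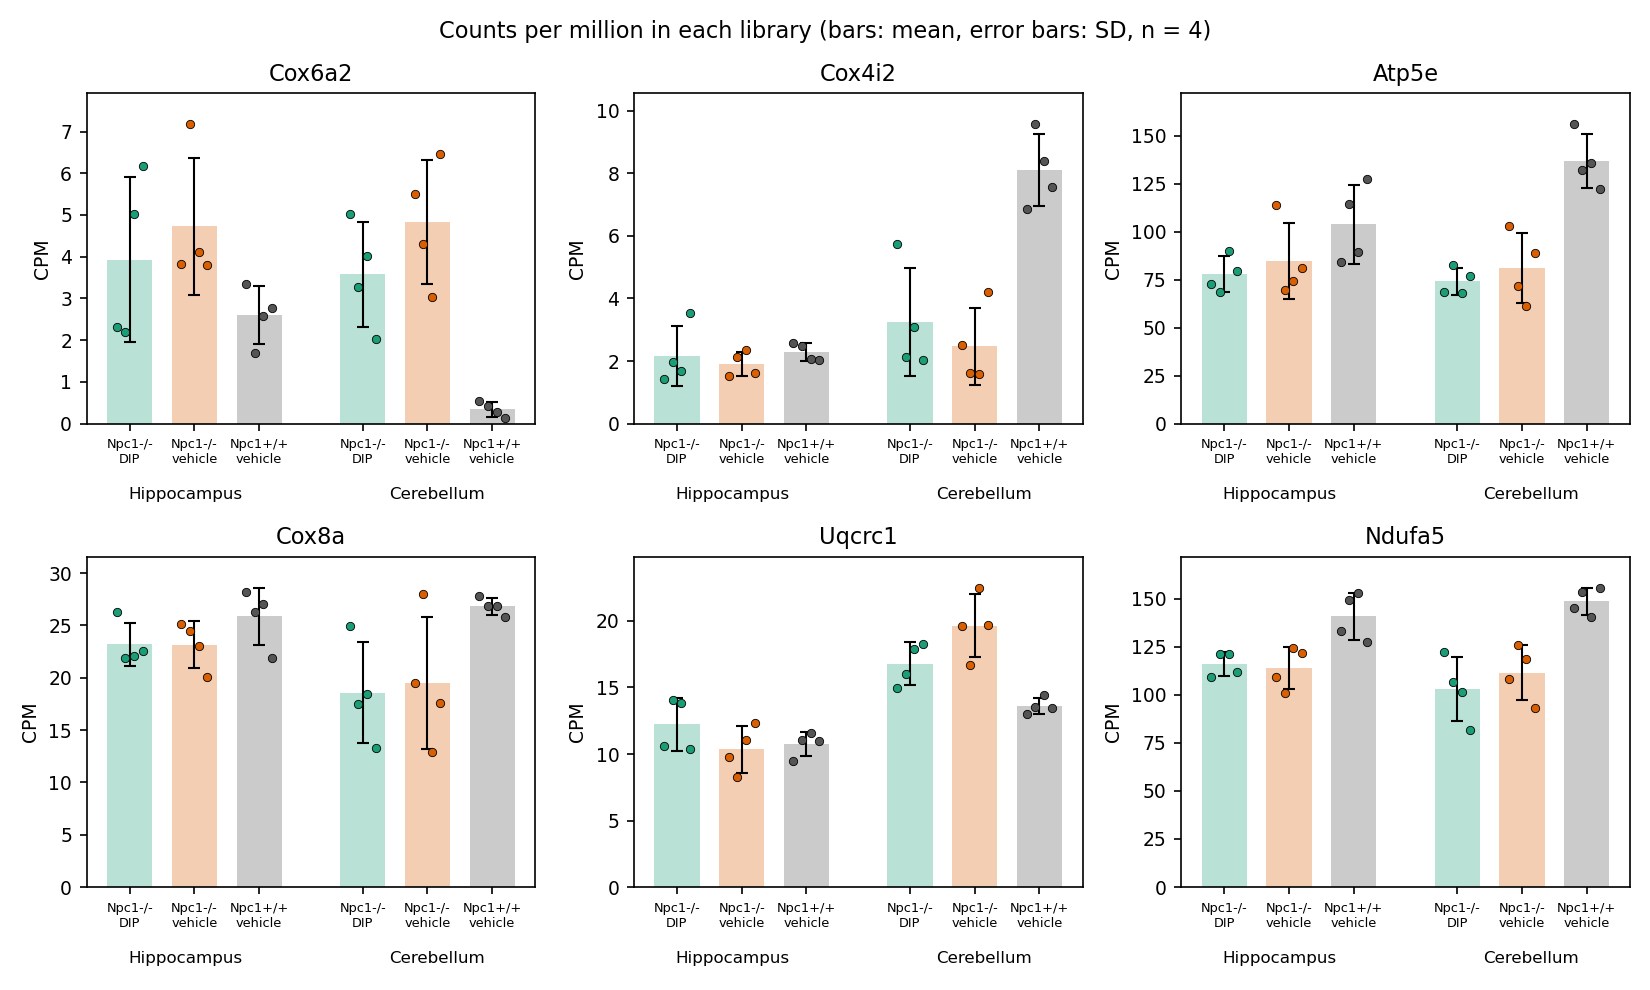
CPM (vertical axis, from 0) of 6 subunit genes in each library, by treatment and genotype within hippocampus (left 3 bars of each panel) and cerebellum (right 3 bars). Bars are means, error bars are SD (n = 4) and points are libraries; in the cerebellum Cox6a2 averages 3.58 and 4.82 CPM in the Npc1-/- groups against 0.338 CPM in Npc1+/+, and Cox4i2 3.25 and 2.48 CPM against 8.11 CPM.

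The promoter windows of 5 genes whose values the results turn on are printed to show what the genes that fell (Atp5e, Cox8a, Cox5b), a gene that rose (Uqcrc1) and the isoform Cox8b, described further on, carry around the annotated start. The windows are RefSeq sequence on GRCm38.p6, from 250 bases before to 50 bases after the annotated start, read 5′ to 3′ on the gene's strand. Capitals mark matches on either strand to the NRF1 palindrome (GCGCA joined to TGCGC, the site of nuclear respiratory factor 1), CCGGAAGT (ETS family, to which GABP belongs), AAGGTCA (the core of estrogen-related receptors), CCAAT (NF-Y) and AAGATGGCG (YY1).
Atp5e, chr2:174464052-174464351, minus strand: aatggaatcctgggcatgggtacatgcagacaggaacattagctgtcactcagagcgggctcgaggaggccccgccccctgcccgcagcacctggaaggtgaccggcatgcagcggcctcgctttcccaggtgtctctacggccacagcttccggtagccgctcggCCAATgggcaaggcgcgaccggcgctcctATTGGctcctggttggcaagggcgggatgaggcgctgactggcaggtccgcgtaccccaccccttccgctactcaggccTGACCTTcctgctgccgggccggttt
Cox8a, chr19:7217567-7217866, minus strand: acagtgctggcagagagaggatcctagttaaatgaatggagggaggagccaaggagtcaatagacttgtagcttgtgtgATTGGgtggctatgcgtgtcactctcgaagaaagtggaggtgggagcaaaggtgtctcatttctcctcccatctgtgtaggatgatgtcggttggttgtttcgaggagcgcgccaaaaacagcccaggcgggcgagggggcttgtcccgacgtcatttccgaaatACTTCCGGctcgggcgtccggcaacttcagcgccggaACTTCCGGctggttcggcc
Cox5b, chr1:36691237-36691536, plus strand: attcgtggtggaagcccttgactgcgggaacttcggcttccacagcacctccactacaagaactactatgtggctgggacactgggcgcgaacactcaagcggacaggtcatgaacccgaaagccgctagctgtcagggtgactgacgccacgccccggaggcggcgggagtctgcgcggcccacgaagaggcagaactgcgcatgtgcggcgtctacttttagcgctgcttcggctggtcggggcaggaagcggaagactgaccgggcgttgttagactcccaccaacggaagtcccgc
Uqcrc1, chr9:108936398-108936697, plus strand: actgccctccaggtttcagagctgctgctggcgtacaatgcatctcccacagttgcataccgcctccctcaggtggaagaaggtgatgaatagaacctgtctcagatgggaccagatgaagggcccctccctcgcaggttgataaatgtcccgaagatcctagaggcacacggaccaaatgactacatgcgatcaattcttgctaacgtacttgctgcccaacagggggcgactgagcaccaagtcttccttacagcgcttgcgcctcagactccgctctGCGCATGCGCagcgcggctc
Cox8b, chr7:140900397-140900696, minus strand: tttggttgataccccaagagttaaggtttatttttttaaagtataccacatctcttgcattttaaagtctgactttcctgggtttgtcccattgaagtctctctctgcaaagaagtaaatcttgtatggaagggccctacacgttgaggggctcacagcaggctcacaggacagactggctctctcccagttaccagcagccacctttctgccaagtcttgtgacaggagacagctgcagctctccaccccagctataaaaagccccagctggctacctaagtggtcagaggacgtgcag
Atp5e and Cox8a each held CCAAT, Atp5e held AAGGTCA, Cox8a held CCGGAAGT at a pair of positions, and Uqcrc1 held the full NRF1 palindrome. The palindrome of Uqcrc1 (from base 281 of the window), AAGGTCA of Atp5e (275) and 1 CCGGAAGT of Cox8a (282) lay after the annotated start. Cox5b and Cox8b held none of the 5 strings.

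A window was found for 68 of the 88 distinct symbols, 66 by symbol and 2 by an older name. The NRF1 palindrome was present in 5 of these 68 windows (7.35%), those of Uqcrc1, Cox6a1, Ndufa11, Atp5k and Atp5g2, against 0.977% of 27018 windows of all genes. AAGATGGCG was present in 6 of 68 windows against 404 of 27018, AAGGTCA in 11.8% against 4.66%, CCGGAAGT in 7.35% against 4.00%, and CCAAT in 44.1% against 37.9%. The windows of the subunit genes were rich in CpG, with a median of 19 CpG against 7 over all windows, and the part of this in the shares was not tested. Cox8b had the fewest, 2 CpG, and Uqcrc1 had 15, Cox8a 19, Atp5e 22 and Cox5b 27.

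In complex I, the entry point for NADH, 25 of 31 tested genes lay below 0 with vehicle. The core subunits Ndufs1, Ndufs7, Ndufs8, Ndufv1 and Ndufv2, which bind the flavin or the iron-sulphur clusters, had log2 fold changes of -0.01 (Ndufs1), -0.37 (Ndufs7), -0.06 (Ndufs8), -0.20 (Ndufv1) and 0.20 (Ndufv2), none of them called. Ndufa5, an accessory subunit of the peripheral arm, had a log2 fold change of -0.51 ± 0.18 with vehicle, short of the threshold at an edgeR adjusted p of 0.0754. Ndufa5 had 122, 107, 101 and 81.5 CPM in the dipyridamole-treated Npc1-/- cerebella, 108, 126, 119 and 93.1 CPM in the vehicle-treated Npc1-/- cerebella and 145, 154, 140.5 and 155 CPM in the Npc1+/+ cerebella. Every Npc1-/- cerebellum lay below the lowest Npc1+/+ one. Ndufb3 is a membrane-arm subunit. Ndufb3 had 75.9, 88.3, 104 and 108 CPM in the dipyridamole-treated Npc1-/- cerebella, 104, 89.9, 101 and 110.1 CPM in the vehicle-treated Npc1-/- cerebella and 146, 159.6, 133 and 143 CPM in the Npc1+/+ cerebella. Its groups separated in the same way, at -0.36 ± 0.17 with vehicle (edgeR adjusted p = 0.201, not called). Ndufs4, whose loss in mice gives a Leigh-like disease, averaged 25.8 ± 6.82 CPM with dipyridamole, 29.1 ± 8.07 CPM with vehicle and 47.7 ± 9.79 CPM in Npc1+/+ cerebella.

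Complex II, the succinate dehydrogenase of the citric acid cycle, is wholly nuclear-encoded. Its flavoprotein Sdha averaged 274 ± 22.5 CPM with dipyridamole, 257 ± 33.5 CPM with vehicle and 303 ± 30.0 CPM in Npc1+/+ cerebella. The iron-sulphur subunit Sdhb averaged 140.5 ± 15.6, 137 ± 22.1 and 139 ± 15.1 CPM in the same order. For the membrane anchors the fitted log2 fold changes with vehicle were 0.17 ± 0.15 (Sdhc) and -0.30 ± 0.20 (Sdhd). None of the 4 was called in any comparison of genotype or treatment. In complex III the Rieske iron-sulphur protein Uqcrfs1 was lower in every Npc1-/- library than in any Npc1+/+ library. Uqcrfs1 had 129, 142, 168 and 145 CPM in the dipyridamole-treated Npc1-/- cerebella, 168, 176, 151 and 178 CPM in the vehicle-treated Npc1-/- cerebella and 202, 196, 199 and 203 CPM in the Npc1+/+ cerebella. Its log2 fold change was -0.23 ± 0.16 with vehicle, not called.

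Levels of the remaining fixed genes are given for the cerebellum as mean ± SD CPM (n = 4 each), in the order dipyridamole-treated Npc1-/-, vehicle-treated Npc1-/- and Npc1+/+. In the iron-sulphur chain of complex I, Ndufs1 averaged 276 ± 138, 329 ± 100.3 and 372 ± 37.5 CPM. Ndufs8 averaged 98.2 ± 2.98, 102 ± 10.4 and 112 ± 19.97 CPM. The Npc1+/+ range of both genes overlapped that of each Npc1-/- group. Ndufs7 averaged 140.5 ± 15.3, 142 ± 17.6 and 162 ± 7.82 CPM. Ndufv1, which binds NADH and the flavin, averaged 58.2 ± 3.47, 59.8 ± 13.3 and 70.7 ± 15.4 CPM, and its partner Ndufv2 286 ± 34.1, 291 ± 35.8 and 276 ± 32.2 CPM. In complex IV, Cox5a averaged 248 ± 16.7, 272 ± 47.7 and 273 ± 25.4 CPM. Cox6b1, on the intermembrane face, averaged 677 ± 100.1, 727 ± 155 and 795 ± 71.05 CPM, and its isoform Cox6b2 7.81 ± 3.18, 7.08 ± 2.65 and 14.1 ± 3.65 CPM. Cox7a2 averaged 474 ± 122, 461 ± 170.5 and 550.2 ± 90.7 CPM, and its muscle isoform Cox7a1 1.44 ± 0.488, 2.60 ± 0.863 and 1.96 ± 0.747 CPM. Cox6b2 was the gene closest to the threshold among those not called, at -1.22 ± 0.40 with vehicle (edgeR adjusted p = 0.0604).

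With dipyridamole, the Npc1-/- cerebella set against the same 4 Npc1+/+ cerebella gave 1 higher (Cox6a2) and 10 lower subunit genes of 71, or 11 called against 14.4% of all 12921 genes (8.13% higher and 6.29% lower). The CPM of 16 genes were lower in all 4 of these libraries than in any Npc1+/+ library, against 12.5% of all genes, and those of 3 were higher, against 13.4%. The 10 were Atp5e, Cox4i2, Cox8a and Cox5b, which also fell with vehicle, and Ndufa5, Ndufb3, Ndufs4, Uqcrfs1, Uqcrq and Uqcrb. The median log2 fold change over the 71 genes was -0.30, against -0.01 over all genes, and 58 lay below 0. Ndufa5 was at -0.60 ± 0.16 (edgeR adjusted p = 0.0181), Ndufb3 at -0.53 ± 0.15 (edgeR adjusted p = 0.0199) and Ndufs4 at -0.81 ± 0.25 (edgeR adjusted p = 0.0378). In complex III, 3 of 8 genes fell: Uqcrfs1 at -0.44 ± 0.14, and the small structural subunits Uqcrq at -0.67 ± 0.21 and Uqcrb at -0.54 ± 0.18, with edgeR adjusted p of 0.0377, 0.0424 and 0.0458. Uqcrq had 13.98, 13.7, 16.8 and 11.9 CPM in the dipyridamole-treated Npc1-/- cerebella, 12.2, 18.9, 10.8 and 15.8 CPM in the vehicle-treated Npc1-/- cerebella and 19.1, 18.4, 25.2 and 22.6 CPM in the Npc1+/+ cerebella. Uqcrb had 190.3, 159, 199.6 and 176 CPM in the dipyridamole-treated Npc1-/- cerebella, 266, 203, 147 and 219 CPM in the vehicle-treated Npc1-/- cerebella and 240.3, 238, 294 and 218 CPM in the Npc1+/+ cerebella. For both genes the dipyridamole-treated values lay below all Npc1+/+ values and the vehicle-treated values overlapped them. These calls are near the threshold. Without dipyridamole replicate 4, which with its hippocampal library carried a repeated ion code, 3 subunit genes were called (Cox6a2, Atp5e and Cox4i2), against 6.58% of all genes. Without Npc1+/+ replicate 2 or 3 there were 6, against 11.3% and 9.89% of all genes. Calls thus fell among all genes too, from 14.4%. The comparison shares its Npc1+/+ libraries with that of the vehicle group, so their likeness is no independent evidence.

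Set directly against vehicle in Npc1-/- mice, dipyridamole gave no call among the subunit genes. In the cerebellum 0 of 71 genes were called, as were 0 of all 12921 genes (0%). An unadjusted p under 0.05 (edgeR) was held by 300 of all genes and by 1 subunit gene, Ndufa11 at -1.11 ± 0.35. It was also the 1 subunit gene lower in all 4 dipyridamole libraries, against 0.573% of all genes, and 0 were higher in all, against 0.635%. In the hippocampus 0 of 70 were called, against 0% of all 12740 genes. An unadjusted p under 0.05 (edgeR) was held by 0 subunit genes and by 93 of all genes, and DESeq2 called 0 in both tissues. There 2 genes, Ndufv3 and Ndufa6, both of complex I, were higher in all 4 dipyridamole libraries, against 0.636% of all genes, and 0 were lower in all, against 0.557%. The median log2 fold change of the subunit genes was -0.01 in the cerebellum and 0.04 in the hippocampus. The median standard error of a subunit gene was 0.17 in the cerebellum and 0.16 in the hippocampus, so a shift of the size of the genotype median would not be detectable for a single gene at this replication. In all, 3 cerebellar and 2 hippocampal genes had a fitted difference beyond 0.5 in either direction. The 5 with the smallest p in the cerebellum were Ndufa11, Uqcrc1 (-0.30 ± 0.15), Atp5mpl (-0.29 ± 0.16), Cox7a1 (-0.78 ± 0.42) and Ndufb5 (-0.24 ± 0.13). Those in the hippocampus were Ndufa4l2 (0.33 ± 0.22), Ndufb9 (-0.46 ± 0.34), Cox6a2 (-0.52 ± 0.38), Ndufs6 (0.19 ± 0.14) and Cox6b1 (0.16 ± 0.13).

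In the hippocampus no subunit gene was called between genotypes. With vehicle, 0 of 70 passed against 1.62% of all 12740 genes (1.02% higher and 0.597% lower), and DESeq2 called 0. An unadjusted p under 0.05 (edgeR) was held by 4 of the 70, against 1569 of all 12740 genes. The median log2 fold change over the 70 genes was -0.15 against -0.01 over all genes, and 52 lay below 0. The CPM of 5 genes (Atp5mpl, Ndufa5, Ndufb5, Ndufv3 and Uqcrc2) were lower in all 4 Npc1-/- Veh hippocampi than in any Npc1+/+ one, against 5.54% of all genes, and those of Cox6a2 were higher, against 6.26%. With dipyridamole against the same Npc1+/+ hippocampi, 0 of 70 passed against 2.68% of all genes (1.59% higher and 1.09% lower), and DESeq2 called 0. Here 4 again had an unadjusted p under 0.05 (edgeR), against 2103 of all 12740 genes, and the median of the subunit genes was -0.14. The 5 genes with the smallest p with vehicle were Cox6a2 (1.34 ± 0.46), Atp5mpl (-0.42 ± 0.15), Ndufb2 (-0.49 ± 0.20), Uqcrfs1 (-0.42 ± 0.18) and Ndufc1 (-0.47 ± 0.22). The same 5 had the smallest p with dipyridamole, at 0.82 ± 0.38, -0.33 ± 0.14, -0.35 ± 0.17, -0.37 ± 0.15 and -0.45 ± 0.20.

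Atp5mpl, a small membrane protein of the ATP synthase, had close Npc1+/+ values. Atp5mpl had 191, 207, 193 and 192 CPM in the dipyridamole-treated Npc1-/- hippocampi, 149.5, 182, 197 and 206 CPM in the vehicle-treated Npc1-/- hippocampi and 247, 249.5, 249.5 and 250.3 CPM in the Npc1+/+ hippocampi. All 8 Npc1-/- hippocampi lay below the 4 Npc1+/+ ones. Cox6a2 separated the vehicle-treated group alone. Cox6a2 had 2.32, 2.20, 5.01 and 6.17 CPM in the dipyridamole-treated Npc1-/- hippocampi, 3.83, 7.18, 4.11 and 3.79 CPM in the vehicle-treated Npc1-/- hippocampi and 3.35, 1.69, 2.58 and 2.78 CPM in the Npc1+/+ hippocampi. The vehicle-treated values lay above the Npc1+/+ range, and the dipyridamole-treated ones overlapped it. Cox4i2 had 1.43, 1.98, 1.67 and 3.54 CPM in the dipyridamole-treated Npc1-/- hippocampi, 1.53, 2.13, 2.35 and 1.62 CPM in the vehicle-treated Npc1-/- hippocampi and 2.58, 2.48, 2.06 and 2.04 CPM in the Npc1+/+ hippocampi. These 3 groups overlapped.

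Levels of fixed genes in the hippocampus are given in the same form (mean ± SD CPM, n = 4 each, in the same order of groups). In complex I, Ndufs1 averaged 233 ± 64.5, 289 ± 82.4 and 278 ± 84.3 CPM, and Ndufv1 61.4 ± 5.56, 60.9 ± 8.13 and 65.1 ± 5.40 CPM. In complex II, Sdha averaged 242 ± 28.8, 249 ± 17.9 and 252 ± 27.6 CPM, and Sdhb 137 ± 6.69, 129 ± 10.5 and 133 ± 6.27 CPM. Neither pair was called. In complex III, Uqcrc1, which was higher in the Npc1-/- cerebellum, averaged 12.2 ± 2.00, 10.3 ± 1.74 and 10.8 ± 0.920 CPM, and Uqcrc2 595 ± 52.5, 564 ± 24.4 and 641 ± 43.3 CPM. In complex IV, Cox4i1 averaged 556 ± 53.1, 512 ± 71.7 and 505 ± 82.6 CPM, Cox5b 531 ± 66.3, 501 ± 128 and 614 ± 92.2 CPM, and Cox6a1 1499 ± 189, 1447 ± 375 and 1321 ± 349.7 CPM. In complex V, Atp5a1 averaged 1000.0 ± 20.8, 941 ± 73.3 and 917 ± 55.9 CPM, Atp5b 1093 ± 34.2, 1056 ± 150.4 and 1234 ± 102 CPM, and Atp5e 77.8 ± 9.40, 84.7 ± 19.96 and 104 ± 20.5 CPM. For each of these genes the ranges of at least 1 Npc1-/- group and Npc1+/+ overlapped.

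**Figure D3:**
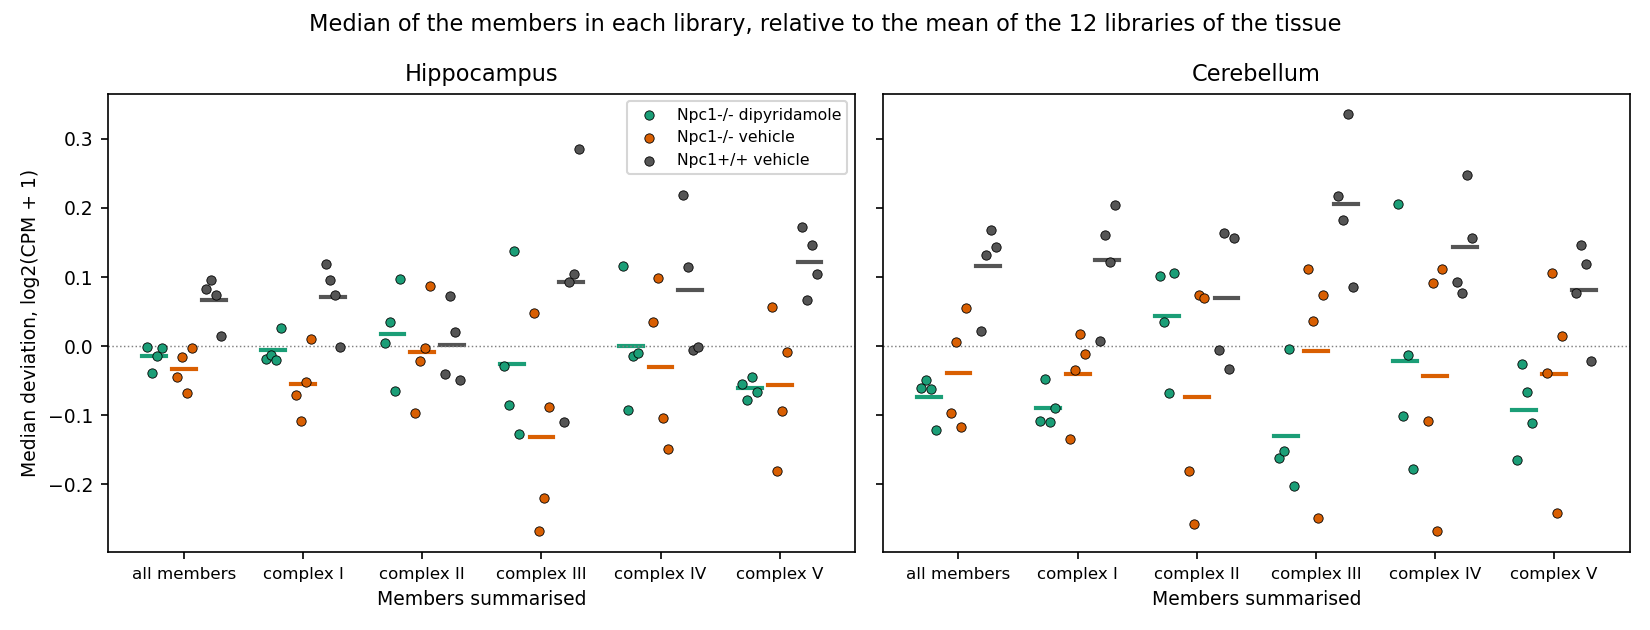
Median deviation of the tested subunit genes in each library, on the log2(CPM + 1) scale and relative to the mean of the 12 libraries of the tissue (vertical axis), for all members and for each complex (horizontal axis), in hippocampus (left) and cerebellum (right). Points are libraries and bars are group means; over all members the Npc1+/+ hippocampi lie between 0.0152 and 0.0960, above the 8 Npc1-/- hippocampi, which lie between -0.0677 and -0.000905.

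Per library, the median deviation of all tested subunit genes lay from -0.121 to -0.0487 in the dipyridamole-treated Npc1-/- cerebella, from -0.118 to 0.0548 in the vehicle-treated ones and from 0.0219 to 0.168 in the Npc1+/+ cerebella, on the log2(CPM + 1) scale. Vehicle replicate 4 lay above the lowest Npc1+/+ cerebellum, and the other 7 Npc1-/- cerebella lay below it. In the hippocampus the ranges were -0.0390 to -0.000905, -0.0677 to -0.00329 and 0.0152 to 0.0960, with no overlap between genotypes. Complex V separated the hippocampal genotypes for all 8 Npc1-/- libraries, with 0.0664 to 0.172 in Npc1+/+ mice against at most 0.0571. Complex II did not separate any groups in either tissue. The dependence of expression on transcript GC content moved in part with genotype. In the cerebellum the slope of log2 expression on GC content was -0.0526 to 0.118 per 10 GC points with dipyridamole and -0.0230 to 0.135 with vehicle, against -0.115 to -0.0479 in Npc1+/+ cerebella, a range that dipyridamole replicate 4 fell within. In the hippocampus it was -0.00207 to 0.0982 with dipyridamole and -0.0366 to 0.120 with vehicle, against -0.133 to 0.0430 in Npc1+/+ mice, which overlap. With this slope as a covariate, a choice made after seeing the data, 22 of 71 subunit genes and 18.2% of all genes were called in the vehicle comparison of the cerebellum.

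Lists of other genes of mitochondrial and energy metabolism were set beside the subunits. Of 64 tested mitochondrial ribosomal protein genes 0 rose and 6 fell in the vehicle-treated Npc1-/- cerebellum, with a median log2 fold change of -0.26. For 39 assembly factors of the respiratory chain the median was -0.14, with 0 higher and 3 lower: Bcs1l, which inserts the Rieske protein into complex III, at -1.52 ± 0.28, Tmem70, an assembly factor of the ATP synthase, at -0.91 ± 0.24, and Ndufaf3, of complex I, at -0.72 ± 0.18 (edgeR adjusted p = 0.00171, 0.0204 and 0.0138). For 17 citric acid cycle genes it was -0.29 with none called, and for 8 carriers beside the chain -0.23 with none called. Of 14 regulators of mitochondrial biogenesis, with a median of -0.20, 1 fell, Tfb1m, the methyltransferase of the mitochondrial small ribosomal RNA, at -0.74 ± 0.22 (edgeR adjusted p = 0.0450). Of 13 glycolysis genes, with a median of -0.08, 1 fell, Hk2, a hexokinase that binds the mitochondrial outer membrane, at -1.69 ± 0.22 (edgeR adjusted p = 7.33e-05). In this comparison 9.95% of all genes were called (5.91% higher and 4.04% lower). Every call in these lists was a fall. The shares called lower were 9.38% of the ribosomal list, 7.69% of the assembly factors, 7.14% of the regulators and 7.69% of glycolysis, against 4.04% of all genes. The shares of the regulators and of glycolysis rest on 1 call each. In the hippocampus the medians were -0.17 for 63 mitochondrial ribosomal protein genes (1 lower), -0.14 for the assembly factors, -0.15 for the citric acid cycle and -0.07 for glycolysis, where Aldoc was higher at 0.80 ± 0.18 (edgeR adjusted p = 0.0435). Of all genes, 1.62% were called there (1.02% higher and 0.597% lower).

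In Npc1+/+ mice, with each mouse as a block and the tissue effect fitted for female mice, 2 subunit genes were higher in hippocampus than in cerebellum and 9 were lower, or 11 of 71 called against 43.1% of all 13436 genes (21.8% higher and 21.3% lower). The median was -0.12, against -0.02 over all genes. The isoforms Cox6a2 and Cox4i2 stood furthest apart, and in opposite directions. Cox6a2, which was named here after its value was seen, averaged 2.71 ± 0.73 CPM in Npc1+/+ hippocampus against 0.325 ± 0.174 CPM in Npc1+/+ cerebellum (scaled over 24 libraries), a log2 difference of 2.95 ± 0.45 (edgeR adjusted p = 3.97e-05). The Npc1+/+ cerebellar values of Cox6a2 rest on 1 to 6 counts each (13 in all), and 0 of these 4 libraries reached the cerebellar filter level of 1.25 CPM. The size of this tissue difference and its adjusted p are therefore uncertain. Cox4i2 averaged 2.39 ± 0.30 CPM against 7.79 ± 1.12 CPM, a log2 difference of -1.68 ± 0.33 (edgeR adjusted p = 0.000489). The other called differences were smaller, among them -0.66 ± 0.25 for Ndufs4, 0.56 ± 0.19 for the complex I subunit Ndufa8, and those of Uqcrh (-0.48 ± 0.17), Ndufb5 (-0.32 ± 0.12), Ndufa4 (-0.31 ± 0.11), Cox4i1 (-0.30 ± 0.11), Sdhc (-0.30 ± 0.10) and Ndufv3 (-0.29 ± 0.10). Without Npc1+/+ mouse 1, 3 or 4 there were 7, 4 and 19 called, against 38.9%, 34.9% and 45.2% of all genes in those fits.

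**Figure D4:**
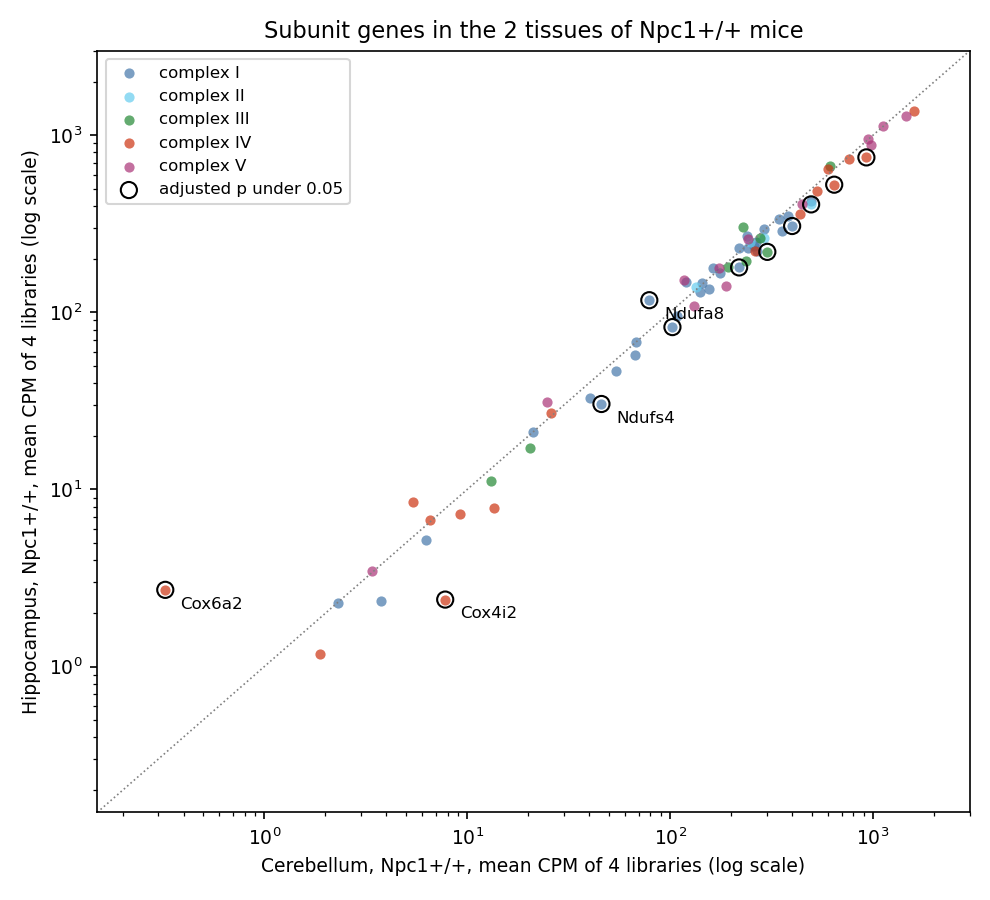
Mean CPM of each tested subunit gene in the 4 Npc1+/+ hippocampi (vertical axis, log scale) against the 4 Npc1+/+ cerebella (horizontal axis, log scale), coloured by complex. The dotted line marks equal values and circles mark genes with an adjusted p under 0.05. Most genes lie near the line, while Cox6a2 lies above it (2.71 against 0.325 CPM) and Cox4i2 below it (2.39 against 7.79 CPM). The cerebellar mean of Cox6a2 rests on 13 counts in all.

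In vehicle-treated Npc1-/- mice Cox6a2 averaged 4.92 ± 1.67 CPM in hippocampus and 4.60 ± 1.43 CPM in cerebellum (log2 difference 1.03 ± 0.50, edgeR adjusted p = 0.156, not called), and Cox4i2 1.99 ± 0.41 CPM and 2.36 ± 1.18 CPM (0.61 ± 0.57, also not called). These differences are fitted for female mice, of which the group has 1, so their size and sign can depart from those of the plain means. In these mice 2 of 71 subunit genes were called, Cox8a higher at 0.80 ± 0.23 and Uqcrc1 lower at -0.94 ± 0.24, against 23.9% of all genes. In dipyridamole-treated mice 4 of 71 were called, against 31.2% of all genes: Cox8a, Uqcr11 and Ndufs3 were higher in hippocampus, and Ndufb9 was lower. Without vehicle replicate 3 the 2 became 1, against 7.69% of all genes. Without dipyridamole replicate 4 the 4 became 0 (23.7% of all genes), or 2 without replicate 2 (28.4%) or 3 (19.9%). A direct test of the difference in genotype effect between hippocampus and cerebellum called 0 of 71 subunit genes, against 1.15% of all genes, and DESeq2 called 0. An unadjusted p under 0.05 (edgeR) was held by 7 of the 71, against 1229 of all 13436 genes. The 5 with the smallest p were Cox4i2 (2.29 ± 0.66, edgeR adjusted p = 0.137), Atp5e (0.72 ± 0.26), Cox6a2 (-1.92 ± 0.68), Cox8a (0.74 ± 0.27) and Uqcrc1 (-0.71 ± 0.29), and for none of them was the genotype effect shown to differ by tissue.

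A pair of complex IV genes varied within the hippocampal groups alongside choroid plexus markers, a pattern noticed after their values were seen. Cox8b, the isoform of subunit 8 known from heart, muscle and brown fat, ranged widely within each group. Cox8b had 13.2, 1.87, 1.91 and 4.99 CPM in the dipyridamole-treated Npc1-/- hippocampi, 12.6, 6.91, 1.88 and 3.38 CPM in the vehicle-treated Npc1-/- hippocampi and 11.4, 18.5, 1.54 and 1.17 CPM in the Npc1+/+ hippocampi. The choroid plexus score, the mean log2 CPM of 12 epithelial markers (all 12 detected), was 5.38, 0.912, 2.45 and 1.47 in the dipyridamole-treated Npc1-/- hippocampi, 5.86, 5.78, 1.71 and 2.71 in the vehicle-treated ones and 6.17, 6.13, 0.728 and 1.15 in the Npc1+/+ hippocampi. The 5 hippocampi with a score above 5 had the 5 highest Cox8b values. Cox6b2, an isoform of subunit 6B known from testis, had its 5 highest values in the same libraries. Cox6b2 had 6.61, 2.09, 3.46 and 3.28 CPM in the dipyridamole-treated Npc1-/- hippocampi, 6.89, 13.6, 3.76 and 2.57 CPM in the vehicle-treated Npc1-/- hippocampi and 11.2, 12.2, 3.35 and 3.21 CPM in the Npc1+/+ hippocampi. Cox8a, the common partner of Cox8b, lay between 20.03 and 28.2 CPM in all 12 hippocampi. The part of the plexus in these values was not tested. In the cerebellum the lowest Npc1-/- Cox8b value, 3.75 CPM in vehicle replicate 1, came from the library with the lowest choroid plexus score, 1.47.

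**Figure D5:**
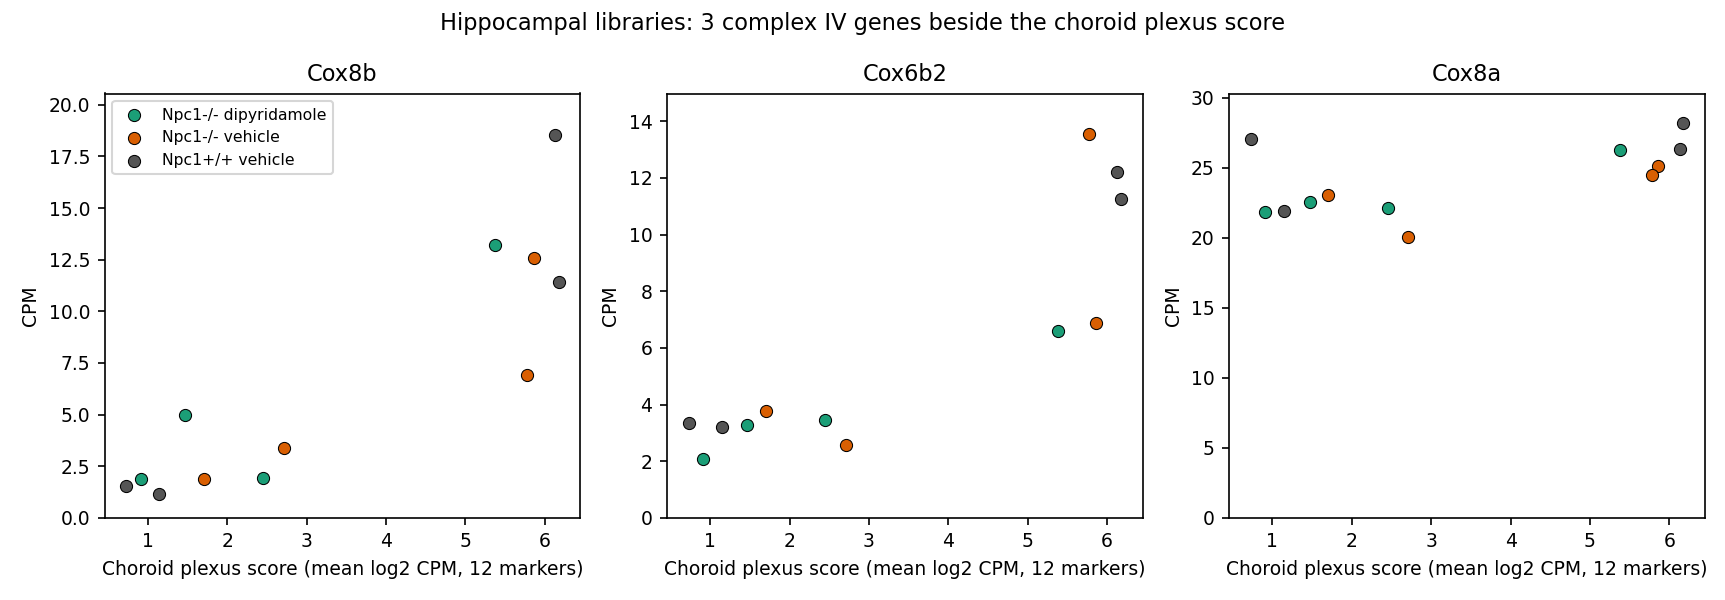
CPM (vertical axis, from 0) of Cox8b, Cox6b2 and Cox8a in the 12 hippocampal libraries against the choroid plexus score, the mean log2 CPM of 12 markers (horizontal axis). Points are libraries coloured by group; the 5 libraries with a score above 5 hold the 5 highest values of Cox8b and of Cox6b2, while Cox8a lies between 20.03 and 28.2 CPM throughout.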

How the data were processed

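Total RNA of hippocampus and cerebellum was read with a targeted AmpliSeq transcriptome panel. The deposited values are whole-number read counts per gene and library, made by the authors with featureCounts 2.0.3 after FastQC 0.11.9, Trimmomatic 0.39 and STAR 2.7.9a on GRCm39, per the submitters' processing notes. Per the file headers, exons of GENCODE vM34 were counted without regard to strand. No label marks amplification duplicates as removed, so counts are not independent molecules.

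From these counts, genes were filtered with filterByExpr over the 3 groups of a tissue, scaled by TMM and tested with edgeR 4.0.16 (quasi-likelihood, robust, R 4.3.3, limma 3.58.1) on the 12 libraries of a tissue together, with a term for sex. The tissue comparison and the difference of genotype effects used all 24 libraries with the mouse as a block and a tissue by sex term. P-values were adjusted (Benjamini-Hochberg) over all genes tested, with a threshold of 0.05; SE is the log2 fold change over the root of F. The script was tested on simulated data. P-values within a tissue measure the spread between mice. Those of the fits over 24 libraries measure the spread of the tissue difference within mice. Replicates of a group differed by more than counting error, with a chi-square over its degrees of freedom of 6.64 to 43.4. DESeq2 1.42.0 and the other settings of the closing section were alternatives.

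The genes and lists were chosen with earlier results of these data known. Named genes were those past the threshold, or else the 5 with the smallest p, in each comparison; for the tissue comparison, called genes that averaged 5 CPM or more; and a fixed set by role. A gene that these rules select is not reported here. CPM were scaled per tissue unless said otherwise. Transcript GC content came from GENCODE vM21, which held 99.7% of the genes, and promoter windows from RefSeq on GRCm38.p6, a build other than that of the counts, so their coordinates do not compare with the gene positions given. For the tissue comparison the labels tie both tissues to 1 mouse, and the deviations of the paired libraries correlated at -0.300 to 0.346.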

Additional observations from a re-analysis of the deposited data

Results flagged for a closer look

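In 90 groups of 4 libraries that were checked, 2 held a library whose gap to its nearest neighbour, as a share of the group's range, exceeded Dixon's critical value for 4 samples, which chance does in about 1 group in 20. The first was Cox6a2 in the vehicle-treated Npc1-/- hippocampus, where replicate 2 had 7.18 CPM and the other 3 had 3.79 to 4.11 CPM. The second was Cox8b in the vehicle-treated Npc1-/- cerebellum, where replicate 1 had 3.75 CPM and the other 3 had 9.16 to 9.87 CPM. That library also had the lowest choroid plexus score of the cerebella, 1.47, and the part of the plexus in the value was not tested.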

How the results depend on the processing

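Cox6a2 in the vehicle-treated Npc1-/- cerebellum was called under all 19 alternatives, Cox4i2 under 18, Atp5e under 17, Cox8a under 15, Uqcrc1 under 14, Ndufa11 under 10 and Cox5b under 9. Cox6a2 passed the filter on low counts through the Npc1-/- libraries alone, and the alternatives reuse Npc1+/+ cerebella with 13 Cox6a2 counts in all. Its calls under them are therefore not independent evidence. The count of called subunit genes in the vehicle-treated Npc1-/- cerebellum, 7, was 13 with DESeq2 (12.9% of all genes called), 11 with no filter (8.75%), 12 with no sex covariate (17.4%), 3 with only the groups compared (3.36%), 2 with the replicate block (4.74%) and 22 with the GC slope as a covariate (18.2%). Leaving out 1 library gave 1 (without vehicle replicate 3, 3.63%) to 15 (without vehicle replicate 2, 14.3%). With dipyridamole against Npc1+/+ cerebella, 11 became 19 with DESeq2 (17.9%), 23 with the GC slope (17.9%), 4 with the replicate block (9.06%) and 5 without vehicle replicate 2 and dipyridamole replicate 4 (9.61%). Leaving out 1 library gave 3 (without dipyridamole replicate 4, 6.58%) to 10 (without Npc1+/+ replicate 1, 12.4%). In the hippocampus, 0 became 1 with the GC slope (2.89%) and 1 with no sex covariate (3.85%) for the vehicle group, and 5 with the GC slope (5.87%) for the dipyridamole group. The GC slope and the removal of both libraries were chosen after seeing the data. Between tissues in Npc1+/+ mice 11 became 5 with no filter (27.3%), 4 with no replicate block (40.7%) and 4 (34.9%) to 19 (45.2%) when 1 mouse was left out. In vehicle-treated Npc1-/- mice 2 became 7 with no tissue by sex term (41.4%) and 1 (7.69%) to 3 (21.7%) with 1 mouse left out. In dipyridamole-treated mice 4 became 7 with DESeq2 (31.3%), 7 with no tissue by sex term (41.0%) and 0 (23.7%) to 3 (28.6%) with 1 mouse left out. For the difference of genotype effects 0 became 1 with no tissue by sex term (2.87%). In female mice alone, the hippocampal difference between dipyridamole and vehicle reversed for Ndufb9 (0.151) and Cox6a2 (0.436), neither called, with 1 vehicle mouse against 2 dipyridamole mice, so that the lone mouse is assumed to vary like the others. The cause of these changes was not tested.

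Replicate numbers across groups share only a number (correlation of deviations -0.343 to 0.542), so the block between genotypes rests on no shared animal. The median log2 fold change of the subunit genes kept its sign under all 19 alternatives between genotypes, from -0.26 to -0.16 in the vehicle-treated cerebellum and from -0.19 to -0.10 in the hippocampus, while with dipyridamole against vehicle it ran from -0.04 to 0.03 in the cerebellum. Depth limits Cox7a1, Ndufa11b, Ndufa11, Cox6a2 and Cox4i2 most of the tested genes, with 266, 483, 505, 589 and 667 counts over all libraries.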
